A study of Mus musculus with 20 samples.

Results

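The miR-216 and miR-217 hairpins and the miR-375 hairpin give rise to microRNAs (miRNAs) that are best known from the pancreas, and their reads were followed here in mouse liver. Every row named for miR-216a, miR-216b, miR-216c, miR-217 or miR-375 was taken, whichever arm of the hairpin it named. This gave 9 of the 1509 miRNA rows found across all libraries, of which 7 were listed for every mouse. Of those 7, 4 passed the filter on low counts (mmu-miR-216b-5p, mmu-miR-216a-5p, mmu-miR-217-5p and mmu-miR-375-3p, with the mouse prefix mmu left out below), and the other 3 are described by their reads alone. Small RNA had been sequenced from flash-frozen livers of 5 PiZ mice and 5 wild-type (WT) mice. All were 6 weeks old and of the C57BL/6 strain. PiZ mice carry the Z variant of the human gene for alpha-1 antitrypsin, a protease inhibitor made by hepatocytes whose Z form is retained inside the cell, and WT mice lack it. The sources used here do not give the copy number or promoter of the transgene, nor the sex of the mice. The labels name a separate animal for each number, and the mouse is the replicate.

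A miRNA is cut from a hairpin precursor whose 5p and 3p arms can each be kept, and its seed near the 5′ end pairs with target messages. miR-216a, miR-216b and miR-217 are enriched in the enzyme-secreting acinar cells of the exocrine pancreas. miR-375 is abundant in the hormone-secreting cells of the pancreatic islets, where it restrains insulin secretion, and is also made by other epithelial and neuroendocrine cells. In bulk liver RNA, a change in the number of cells that hold a miRNA and a change in the amount per cell cannot be told apart.

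The mature sequences are printed because their seeds show how alike the members are. RefSeq (GRCm38.p6) held 8 of the 9 members, and miR-375-3p is named only. The 5p arms that carried most reads are printed first, with the seed (bases 2 to 8, counted from the 5′ end) in capitals.
miR-216b-5p: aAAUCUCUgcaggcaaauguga
miR-216a-5p: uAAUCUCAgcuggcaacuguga
miR-217-5p: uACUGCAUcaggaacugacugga
miR-216b-3p: aCACUUACcuguagagauucuu
miR-216a-3p: cACAGUGGucucugggauuaug
miR-217-3p: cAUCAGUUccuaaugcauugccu
miR-216c-3p: uUUGCCUGcagagauuucccagu
miR-216c-5p: gAAGAAUCucuacagguaagugu
miR-216b-5p and miR-216a-5p had 18 of 22 bases in common at the same position, including 6 of the 7 seed bases. The seed of miR-217-5p was unlike either. None of the seeds of miR-216b-5p, miR-216a-5p and miR-217-5p was shared in full with another of the 1679 mature mouse miRNAs in the RefSeq table.

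The hairpins of miR-216b, miR-216a and miR-217 lie on the plus strand of chromosome 11 within 17645 bases. They are printed with both arms in capitals because most reads described below came from this one stretch of the genome.
Mir216b, chr11:28746191-28746276: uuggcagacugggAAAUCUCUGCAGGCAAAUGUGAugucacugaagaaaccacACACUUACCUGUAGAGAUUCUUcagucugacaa
Mir216a, chr11:28757012-28757083: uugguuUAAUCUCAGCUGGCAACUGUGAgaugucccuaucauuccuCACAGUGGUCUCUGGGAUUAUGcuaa
Mir217, chr11:28763728-28763835: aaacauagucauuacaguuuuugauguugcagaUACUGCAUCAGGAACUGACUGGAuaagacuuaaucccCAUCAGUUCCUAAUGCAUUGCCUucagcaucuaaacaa
Mir216b and Mir216a are 10735 bases apart, and Mir216a and Mir217 are 6644 bases apart. In RefSeq, Mir216b lies within the long noncoding RNA gene Mir217hg. Mir216a and Mir217 lie in an intron of the long noncoding RNA gene Gm12082 in GENCODE M21, on the same strand. Mir216c is annotated on the opposite strand at chr11:28746198-28746266, where it is the reverse complement of a 69-base stretch of Mir216b. Mir375 is elsewhere, on the minus strand at chr1:74900658-74900721, between the protein-coding genes Cryba2 and Cfap65.

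Depth sets what can be said of miRNAs this rare. After the 2 sequencing runs of each mouse were summed, libraries held 1307857 to 10780801 reads. A single read equalled 0.0887 CPM (reads scaled to a library of 1000000, with TMM factors) in the deepest library and 0.715 CPM in the shallowest. The libraries came with feature lists of 2 lengths, 1399 miRNAs for PiZ mice 1 and 2 and WT mice 1 to 3, and 990 for PiZ mice 3 to 5 and WT mice 4 and 5. Both lists held PiZ and WT mice, and the list was a term of the model. The liver label was checked with the hepatocyte list of miR-122, miR-192, miR-194 and miR-802 arms. All 6 of its members were detected, and they summed to 122317 to 250617 CPM in PiZ and 62838 to 239036 CPM in WT liver. The lowest sums were those of WT mice 1 and 3, at 62838 and 86723 CPM. Most of each sum came from miR-192-5p, whose WT mean of 137198 CPM had an SD of 78339. The WT mean of miR-122-5p was 13013 CPM with an SD of only 1133. The sums therefore say little about members other than miR-192-5p, and WT mice 1 and 3 were not shown to be low in miR-122-5p. PiZ mouse 5 was the lowest PiZ mouse in miR-216b-5p, miR-217-5p and miR-216a-5p. The tests of these rows are also given without WT mice 1 and 3 and PiZ mouse 5. PiZ mouse 5 was singled out for its low values in the same rows. Smaller p-values without it therefore follow from that choice and are no support for a difference.

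Reads of miR-216b-5p, miR-216a-5p and miR-217-5p were found mainly in PiZ mice 1 to 4, and miR-375-3p was read in every mouse of both genotypes. miR-216b-5p and miR-217-5p passed the test between genotypes, and miR-216a-5p and miR-375-3p did not. These were 2 of the 4 member rows tested, both higher in PiZ liver. With 1 WT read each, these rows passed the filter through the PiZ libraries and could be called in that direction alone. Over the 336 miRNAs of the test, 9.23% were called in edgeR (quasi-likelihood F-test, p-values adjusted by Benjamini-Hochberg, threshold 0.05). By direction, 8.33% were higher and 0.893% were lower in PiZ liver.

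mmu-miR-216b-5p was the most abundant of the chromosome 11 arms. It had 32, 55, 432, 116 and 11 reads in PiZ mice 1 to 5, against 0, 0, 0, 1 and 0 reads in WT mice 1 to 5. In CPM this was 13.1, 21.7, 43.2, 10.3 and 1.32 in PiZ mice, against 0, 0, 0, 0.152 and 0 in WT mice. PiZ mouse 3 was the highest, PiZ mouse 5 was far below the other PiZ mice, and the groups did not overlap. PiZ mice averaged 17.9 ± 15.9 CPM and WT mice 0.0303 ± 0.0678 CPM (SD, n = 5 per genotype). The ratio of the PiZ to the WT total was 390.5 (95% exact counting interval 69.8 to 15446), and 182 without PiZ mouse 3. Intervals of this kind cover counting error only, since reads are not independent molecules. In edgeR's quasi-likelihood test, the log2 fold change was 8.02 (SE 1.25, adjusted p = 0.00303). An exact two-sided permutation test on ranks, added after the data were seen, gave an unadjusted p = 0.00794. That is the smallest value that 5 against 5 mice allow. It ranks PiZ mouse 5 above the zeros of WT mice 1 to 3, a difference not detectable at their depth, as given below. The row was also picked with earlier results known, so this p is no independent support.

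The zeros in WT liver were not all equally informative. A count of 0 allows up to 3 reads, which is 2.15, 1.57 and 1.68 CPM in WT mice 1 to 3, and each of these limits lies above the 1.32 CPM of PiZ mouse 5. In WT mouse 5, the deepest WT library, the limit is 0.326 CPM. At the pooled PiZ level, WT mice 1 to 5 would have given 26.1, 35.8, 33.3, 123 and 172 reads of miR-216b-5p. At the level of PiZ mouse 5 they would have given 1.84, 2.52, 2.35, 8.68 and 12.1 reads. A difference between PiZ mouse 5 and WT mice 1 to 3 was therefore not detectable at this depth, whereas PiZ mice 1 to 4 lay above every limit.

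The call on miR-216b-5p did not hold without every mouse. Without WT mouse 4, which held the only WT read, the adjusted p was 0.0766 (edgeR, log2 fold change 9.65). No WT read was then left, so the size of this fold change is not a measured ratio. Leaving out any other mouse kept the adjusted p in edgeR between 3.24e-05, without PiZ mouse 5, and 0.0335, without WT mouse 5. Without WT mice 1 and 3 it was 0.0623, and without those mice and PiZ mouse 5 it was 0.00207 (edgeR). In limma-voom on all mice the log2 fold change was 6.05, and the call was lost (adjusted p = 0.0567).

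mmu-miR-217-5p, known to target the deacetylase Sirt1, followed the same order among PiZ mice except that it ranked mouse 4 above mouse 1. It had 6, 13, 119, 45 and 0 reads in PiZ mice 1 to 5, against 0, 0, 0, 1 and 0 reads in WT mice 1 to 5. The levels were 2.46, 5.12, 11.9, 3.99 and 0 CPM in PiZ mice, against 0, 0, 0, 0.152 and 0 CPM in WT mice. PiZ mice 1 to 4 were above all WT mice, and PiZ mouse 5 was at 0, as were 4 of the WT mice. PiZ mice averaged 4.70 ± 4.47 CPM and WT mice 0.0303 ± 0.0678 CPM (SD, n = 5 per genotype). The ratio of totals was 111 (95% exact counting interval 19.6 to 4392), and 54.4 without PiZ mouse 3. In edgeR the log2 fold change was 6.15 (SE 1.49, adjusted p = 0.0297), and the exact permutation test on ranks gave an unadjusted p = 0.0476. This call was easily lost. With PiZ mouse 1 or 2 or any WT mouse left out, the adjusted p in edgeR was 0.0681 to 0.171, and without PiZ mouse 3 or 4 the row no longer passed the filter. Without PiZ mouse 5 it was 2.22e-04, without WT mice 1 and 3 it was 0.121, and without all 3 of these mice it was 0.00426 (edgeR). In limma-voom the log2 fold change was 3.77 (adjusted p = 0.189).

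mmu-miR-216a-5p, similar in sequence to miR-216b-5p, was the only chromosome 11 arm with more than 1 read in any WT mouse. It had 12, 19, 109, 27 and 1 reads in PiZ mice 1 to 5, against 3, 1, 0, 1 and 0 reads in WT mice 1 to 5. The levels were 4.91, 7.49, 10.9, 2.40 and 0.120 CPM in PiZ mice, against 2.15, 0.522, 0, 0.152 and 0 CPM in WT mice. PiZ mice 1 to 4 were again above all WT mice, but PiZ mouse 4 was only just above WT mouse 1, where 3 reads in the shallowest library gave the highest WT level. PiZ mice averaged 5.16 ± 4.23 CPM and WT mice 0.564 ± 0.909 CPM (SD, n = 5 per genotype). The ratio of totals was 20.3 (95% exact counting interval 8.53 to 63.4), and 10.03 without PiZ mouse 3. In edgeR the log2 fold change was 4.12 (SE 1.20, 95% interval 1.49 to 6.76, adjusted p = 0.0579). The exact permutation test on ranks gave an unadjusted p = 0.0556. The row passed without PiZ mouse 5 (adjusted p = 0.00560, edgeR) and in DESeq2 on all mice (adjusted p = 0.00391), and it did not in limma-voom (adjusted p = 0.153). With 5 WT reads in all, this row too passed the filter through the PiZ libraries and could hardly be called lower there. The pass without PiZ mouse 5, its lowest PiZ mouse, is no support. The other omissions of 1 mouse that tested it gave adjusted p-values of 0.0792 to 0.177 in edgeR. Without WT mouse 1, which held 3 of the 5 WT reads, the log2 fold change was 5.24 (adjusted p = 0.0792, edgeR). Without WT mice 1 and 3 it was 5.02 (adjusted p = 0.121), and without those mice and PiZ mouse 5 it was 5.53 (adjusted p = 0.00873, edgeR).

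**Figure D1:**
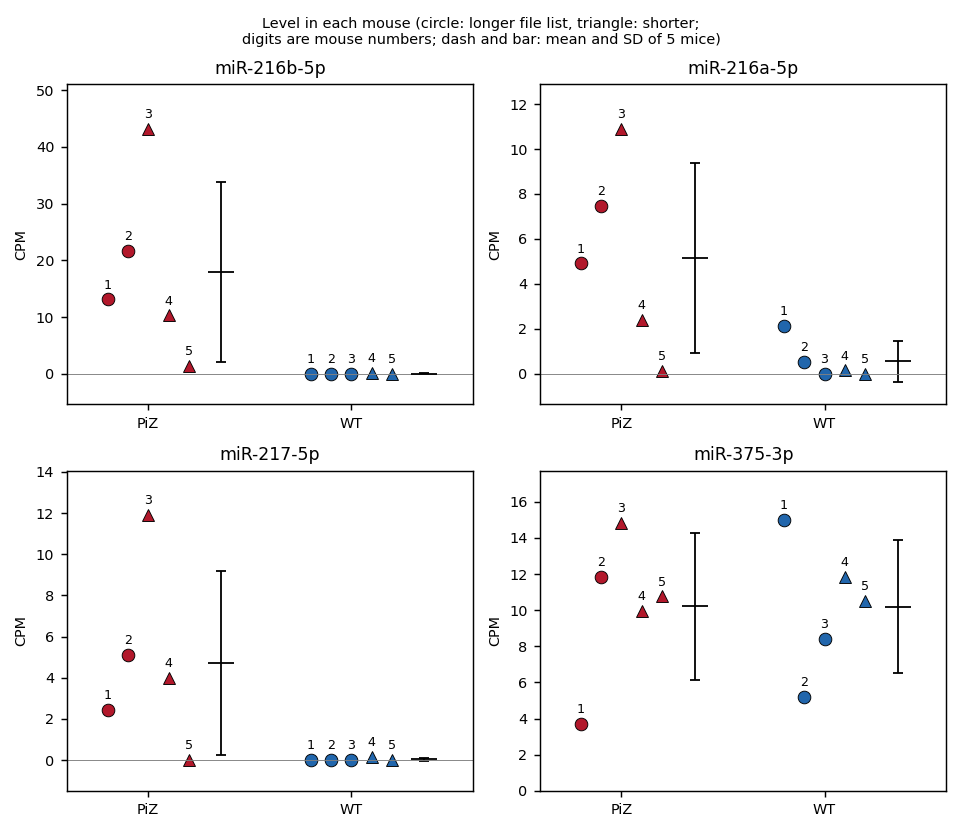
Level of miR-216b-5p, miR-216a-5p, miR-217-5p and miR-375-3p in CPM (linear y axis, one scale per panel) in each of 5 PiZ and 5 WT livers; numbers name the mice, circles mark the longer and triangles the shorter feature list, and the dash with its bar is the mean and SD. PiZ mouse 3 is the highest for the first 3 miRNAs and PiZ mouse 5 lies at or near 0, whereas miR-375-3p spans 3.68 to 14.8 CPM in PiZ and 5.22 to 15.0 CPM in WT liver.

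The passenger arms of these hairpins were read in PiZ liver alone. miR-216a-3p had 4, 8, 27, 11 and 0 reads in PiZ mice 1 to 5 and 0 reads in each WT mouse. miR-216b-3p had 3, 1, 13, 4 and 0 reads in PiZ mice and 0 in each WT mouse. miR-217-3p had 0, 1, 5, 1 and 0 reads in PiZ mice and 0 in each WT mouse. Each was too rare for the filter and has no test in edgeR's main model. The PiZ totals as counted were set against a limit of 3 reads over the WT group. The ratios were 10.1 for miR-216a-3p, 4.23 for miR-216b-3p and 1.41 for miR-217-3p. They leave out the counting error of the PiZ reads and so are not lower bounds. PiZ mouse 3 held 27, 13 and 5 of the reads of these arms, and without it the ratios were 6.51, 2.27 and 0.567. The PiZ level of miR-217-3p was then below the WT limit. Both miR-216c arms had 0 reads in the 5 mice whose longer list holds them.

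Arm use differed between the hairpins. In PiZ liver the 5p arm held 96.9% of the miR-216b reads (646 of 667 reads, 95% exact binomial interval 95.2 to 98.0%) and 96.3% of the miR-217 reads (183 of 190, 92.6 to 98.5%). For miR-216a it held 77.1% (168 of 218 reads, 70.9 to 82.5%). The miR-216a interval does not meet the other 2, so over the summed reads its 3p arm took a larger share beyond counting error. The 5p share of miR-216a was 75.0, 70.4, 80.1 and 71.1% in PiZ mice 1 to 4, against 91.4, 98.2, 97.1 and 96.7% for miR-216b and 100, 92.9, 96.0 and 97.8% for miR-217 in the same mice. The intervals of miR-216a met those of miR-216b in PiZ mouse 1, and those of miR-217 in PiZ mice 1 and 2. The WT libraries held 5, 1 and 1 reads of miR-216a, miR-216b and miR-217, all of the 5p arm, too few to compare arm use between genotypes.

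**Figure D2:**
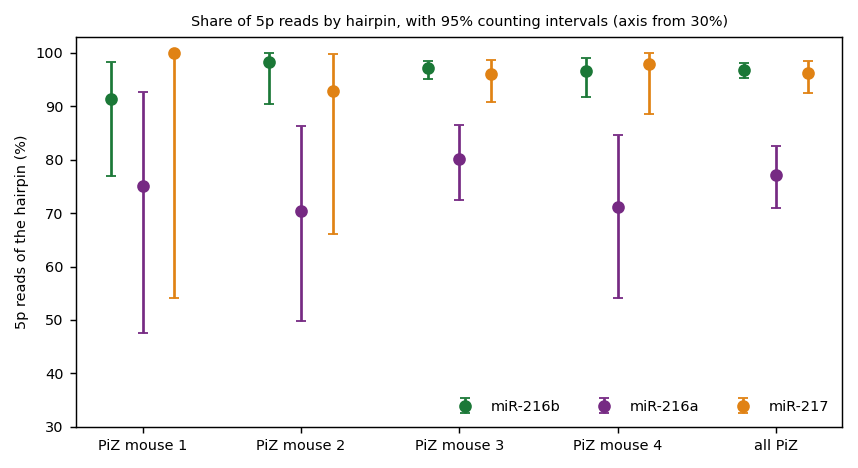
Share of each hairpin's reads that came from its 5p arm (y axis, percent, starting at 30) in PiZ mice 1 to 4 and in all PiZ mice summed, with 95% exact binomial intervals for counting error. miR-216a lies at 70.4 to 80.1% in the 4 mice, below miR-216b and miR-217 in each; PiZ mouse 5 (at most 11 reads a hairpin) and WT mice are not drawn.

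The share of miR-216b-5p among the 3 arms was steady in PiZ mice 1 to 4, while the shares of the other arms varied more. PiZ mice 1 to 5 had 50, 87, 660, 188 and 12 reads of miR-216b-5p, miR-216a-5p and miR-217-5p together. miR-216b-5p made up 64.0, 63.2, 65.5 and 61.7% of them in PiZ mice 1 to 4, and 64.8% over all PiZ mice (95% exact binomial interval 61.7 to 67.8%). Among these 4 mice the share of miR-216b-5p varied by less than its counting error. miR-216a-5p made up 24.0, 21.8, 16.5 and 14.4% and miR-217-5p 12.0, 14.9, 18.0 and 23.9% in PiZ mice 1 to 4. miR-216a-5p thus had more reads than miR-217-5p in PiZ mice 1 and 2 and fewer in PiZ mice 3 and 4, although for each arm the counting intervals of the 4 mice overlapped. PiZ mice 1 and 2 had the longer feature list and shallower libraries, and PiZ mice 3 and 4 the shorter list and deeper libraries. A difference between mice therefore cannot be told apart from one between lists or depths here. In PiZ mouse 5, 11 of the 12 reads were miR-216b-5p, while in WT liver 5 of 7 were miR-216a-5p.

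**Figure D3:**
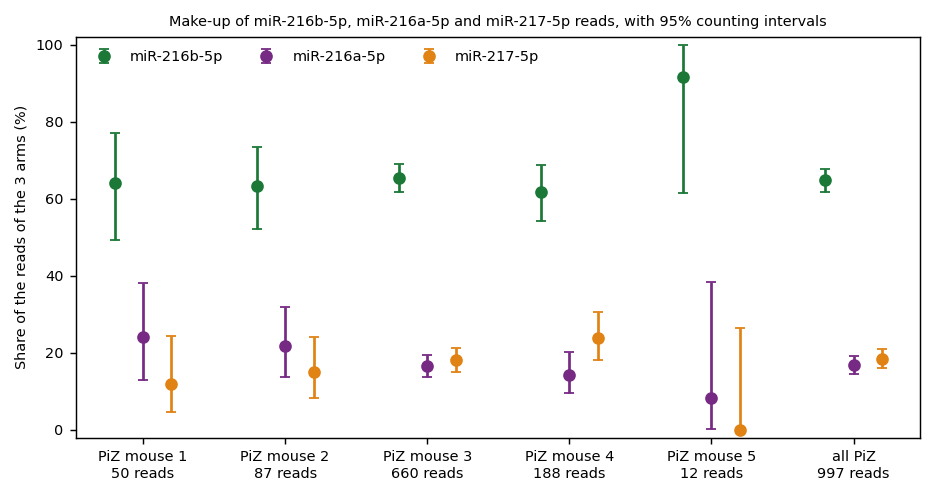
Share of miR-216b-5p, miR-216a-5p and miR-217-5p (y axis, percent) in the summed reads of these 3 arms in each PiZ mouse and over all PiZ mice, with 95% exact binomial intervals and the number of reads under each mouse. miR-216b-5p stays at 61.7 to 65.5% in PiZ mice 1 to 4 although their summed reads run from 50 to 660.

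mmu-miR-375-3p, the islet miRNA, was read in every library and did not pass the test between genotypes. It had 9, 30, 148, 112 and 90 reads in PiZ mice 1 to 5, against 21, 10, 15, 78 and 97 reads in WT mice 1 to 5. The levels were 3.68, 11.8, 14.8, 9.94 and 10.8 CPM in PiZ mice, against 15.0, 5.22, 8.40, 11.8 and 10.5 CPM in WT mice. The groups overlapped throughout, with the lowest value in PiZ mouse 1 and the highest in WT mouse 1. PiZ mice averaged 10.2 ± 4.09 CPM and WT mice 10.2 ± 3.67 CPM (SD, n = 5 per genotype). In edgeR the log2 fold change was -0.08 (SE 0.37, adjusted p = 0.932), and its 95% interval of -0.89 to 0.74 spans a fold of 0.539 to 1.67. A change within that range could not be told from none with these mice. The exact permutation test on ranks gave p = 1. The sign of this difference changed with the processing.

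The order of the members by mean level differed between the genotypes. In PiZ liver it ran from miR-216b-5p, in place 194 of the 880 miRNAs listed for every mouse, through miR-375-3p (221) and miR-216a-5p (276) to miR-217-5p (283). These means lie within the spread of the PiZ mice, so neighbours in that order are not separated. In WT liver miR-375-3p came in place 206 and miR-216a-5p in 417, and miR-216b-5p and miR-217-5p were both in 640. Set against miR-375-3p within the same library, which needs no scaling, miR-216b-5p had 3.56, 1.83, 2.92, 1.04 and 0.122 reads per miR-375-3p read in PiZ mice 1 to 5. In WT mouse 4 it had 0.0128, and in the other WT mice 0.

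The PiZ mice lay above the WT mice in miR-216b-5p within each feature list. Among the mice of the longer list, miR-216b-5p stood at 13.1 and 21.7 CPM in PiZ mice 1 and 2 and at 0 in WT mice 1 to 3 (edgeR within these 5 mice, log2 fold change 8.15, adjusted p = 0.00504). With no WT read among them, the size of this fold change is not a measured ratio. Within the shorter list, it stood at 43.2, 10.3 and 1.32 CPM in PiZ mice 3 to 5, against 0.152 and 0 CPM in WT mice 4 and 5 (log2 fold change 7.89, adjusted p = 0.314, edgeR). A test of the difference between lists found 0 of 372 miRNAs past the threshold in edgeR and 0 in DESeq2 (16 with an unadjusted p under 0.05 in edgeR, 0.00% called). For miR-216b-5p the lists differed by -1.87 on the log2 scale with an SE of 4.46, so that test had little precision. Counts were also compared between the 2 runs of each library. Among 24 combinations of mouse and member with 10 or more reads, all had reads in both runs, and none departed from the depth of its runs in an exact binomial test (smallest p = 0.0544).

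Across the 10 mice, miR-216b-5p followed miR-217-5p with a Pearson r of 0.96 and miR-216a-5p with 0.85, on log2 CPM with a prior count of 2. Its r with miR-375-3p was 0.02. All miRNAs of a mouse share its library and depth, and these values are a description with no test. Mice of both genotypes were pooled, so a high r between rows with higher PiZ means largely repeats the difference given above. It adds no support. Outside the members, the 5 miRNAs nearest to miR-216b-5p among those past the filter were miR-449b (r = 0.99), miR-34c-5p (0.99), miR-6364 (0.98), miR-708-5p (0.97) and miR-34b-5p (0.97). miR-34b, miR-34c and miR-449b belong to a family known for p53-driven arrest and for multiciliated cells, and miR-708 lies in an intron of Tenm4.

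These rows were picked for following miR-216b-5p over the same mice, so a like pattern follows from the choice and is given as a description. miR-34c-5p stood at 3425, 3396, 5409, 3939 and 95.8 CPM in PiZ mice 1 to 5, against 14.6 to 38.8 CPM in WT mice. miR-449b stood at 9.003, 10.2, 13.5, 8.16 and 1.20 CPM in PiZ mice, against 0.303 CPM in WT mouse 4 and 0 in the other WT mice. PiZ mouse 5 was the lowest PiZ mouse in all 5 of these rows, and PiZ mouse 3 the highest in all but miR-34b-5p. As a share of PiZ mouse 3, PiZ mice 1 and 2 were higher in miR-34c-5p and miR-449b than in miR-216b-5p. The miRNAs picked as nearest to miR-375-3p in the same way were miR-676-3p (r = 0.80), miR-6412 (0.80), miR-423-3p (0.79), let-7e-5p (0.79) and miR-744-5p (0.78). WT mouse 1 was the highest in each.

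**Figure D4:**
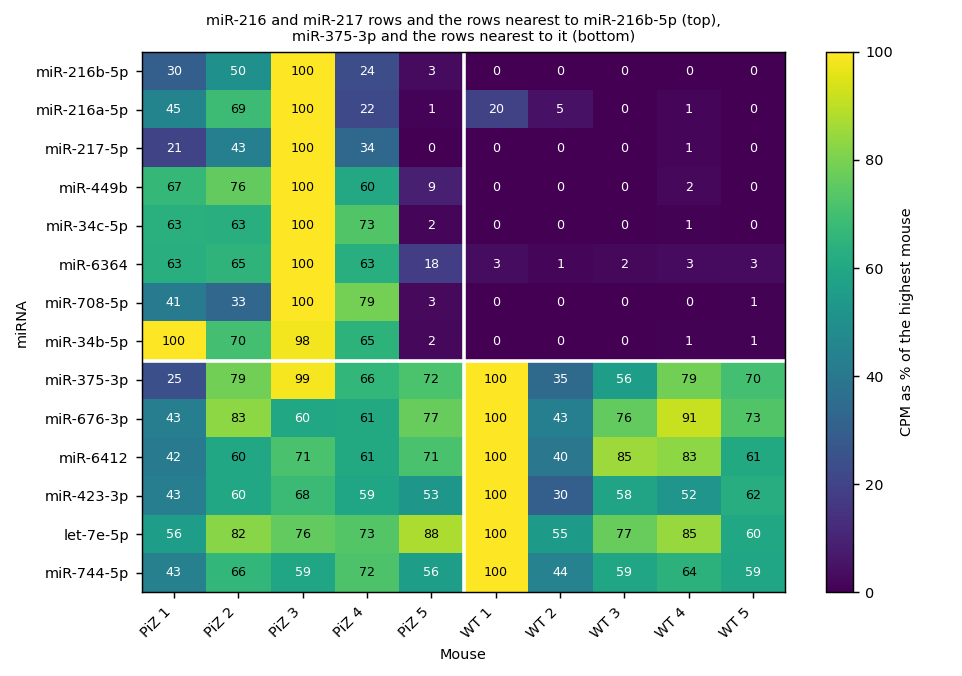
Level of each miRNA in each mouse as a percentage of its highest mouse (colour and printed number), with PiZ mice left and WT mice right of the white line; the upper block holds the miR-216 and miR-217 5p arms and the 5 miRNAs nearest to miR-216b-5p, the lower block miR-375-3p and the 5 nearest to it. In the upper block PiZ mice 1 to 4 are higher than PiZ mouse 5 and every WT mouse in each row, while the lower block has WT mouse 1 highest in every row and overlapping PiZ and WT mice.

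Lists of miRNAs known from other cell types were set beside the members. In the islet and neuroendocrine list, 7 of 16 members were tested, 6 had a positive and 1 a negative log2 fold change, and 0 passed in edgeR (median 0.44, against 0.07 over all 336 tested miRNAs). Its members summed to 307 to 918 CPM in PiZ and 188 to 509 CPM in WT liver, mostly miR-182-5p. In the epithelial list of miR-200, miR-203 and miR-205 arms, 8 of 9 were tested, 7 positive and 1 negative, and 0 passed (median 0.54). It summed to 489 to 586 CPM in PiZ and 430 to 605 CPM in WT liver, led by miR-203-3p. In the gut list 2 of 5 were tested, 1 positive and 1 negative, 0 passing (median -0.0022), with sums of 535 to 802 CPM in PiZ and 724 to 1314 CPM in WT liver, led by miR-31-5p. In the hepatocyte list all 6 were tested, 4 positive and 2 negative, 0 passing (median 0.08), led by miR-192-5p. At an unadjusted p under 0.05 in edgeR there were 1 islet, 3 epithelial, 1 hepatocyte and 1 gut member, against 24.4% of all miRNAs tested. DESeq2 called 2 members, both with a negative fold change, miR-122-5p of the hepatocyte list and miR-31-5p of the gut list, and limma-voom called 0, against 14.9% in DESeq2 and 2.08% in limma-voom of all miRNAs tested. No list of other exocrine pancreas miRNAs was drawn up to set beside the chromosome 11 arms. The part of other cell types in these results was not tested.

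One PiZ library held miRNAs of other tissues. PiZ mouse 4 had 59.5 CPM of the neural miR-9-5p, against at most 2.20 CPM in the other PiZ mice and 1.09 CPM in WT mice. It had 41.3 CPM of the muscle miR-133a-3p, against at most 1.64 CPM in the other PiZ mice and 2.15 CPM in WT mice. The muscle list, with 0 of 7 members tested and led by miR-133a-3p, summed to 67.6 CPM in this mouse, to 0.788 to 3.68 CPM in the other PiZ mice and to 0.560 to 3.13 CPM in WT mice. PiZ mouse 4 had the fourth highest level of miR-216b-5p and miR-216a-5p and the third highest of miR-217-5p. Without it the log2 fold change of miR-216b-5p was 8.22 (adjusted p = 0.00569, edgeR).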

How the data were processed

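Per the labels' protocols, miRNA-enriched RNA was extracted with the miRNeasy kit, libraries were made with the TruSeq small RNA kit from 1 µg of RNA, and each library was run 2 times. Of the tools, the submitters' processing notes name CASAVA. The sources used here give no aligner, miRNA annotation release, genome build or rule for reads matching several miRNAs. How reads were assigned between similar miRNAs is thus not known. miR-216a-5p and miR-216b-5p share 18 of 22 bases. The deposited files hold estimated counts per miRNA, which need not be whole; all values of the members were whole.

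The 2 runs of a mouse were summed and rounded. The 880 miRNAs listed for every mouse were filtered with filterByExpr (336 kept), scaled by TMM and fitted with edgeR 4.0.16 in R 4.3.3 (quasi-likelihood F-test, feature list and genotype, Benjamini-Hochberg adjustment over all tested, threshold 0.05). CPM use TMM-scaled library sizes. Standard errors come from the log2 fold change and the square root of its F, and 95% intervals use the t quantile of the fit. Exact tests and intervals (Clopper-Pearson) used scipy 1.17.1 in Python 3.11.15; limits for a count of 0 are 3 reads. Alternatives were other scalings and filters, DESeq2 1.42.0, limma 3.58.1 (voom), genotype alone, each list or run alone and leaving out mice. The steps were tested on simulated data. Sequences and positions are from RefSeq GRCm38.p6 and GENCODE M21, not from the deposited files.

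The members and lists were chosen with earlier results of these data known. Named miRNAs are all members, the 5 miRNAs nearest by Pearson r to miR-216b-5p and to miR-375-3p, and the most abundant member of each list; miR-9-5p, miR-122-5p and the other-tissue miRNAs of PiZ mouse 4 were chosen after their values were seen. A replicate number stands for one animal in each genotype and pairs no mice. With 5 mice a group, the p-values of edgeR, DESeq2 and limma-voom set the genotype difference against the spread between these mice. The binomial p-values between runs concern counting within a library only.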

Additional observations from a re-analysis of the deposited data

Results flagged for a closer look

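Of 8 groups of 5 mice checked for a mouse standing apart, 2 stood out. Both were WT groups in which WT mouse 4 was the highest, for miR-216b-5p and for miR-217-5p. In each its gap to the next mouse was the whole range of the group (a ratio of 1, against a limit of 0.71), since its 1 read of each miRNA stood against 0 reads in the other 4 WT mice. The lowest PiZ mouse, mouse 5, reached ratios of 0.568 for miR-216b-5p and 0.583 for miR-217-5p, under the limit. PiZ mouse 1 reached 0.707 for miR-375-3p, just under it.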

How the results depend on the processing

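Against 31 miRNAs past the threshold, of them 2 members, there were 83 and 5 with no filter, 50 and 3 in DESeq2, 7 and 0 in limma-voom, 17 and 0 with genotype alone, 0 and 0 in the shorter list alone (55 miRNAs with an unadjusted p under 0.05 in edgeR), 18 and 1 in run 2 alone, and 0 and 0 without WT mice 1 and 3 (104 unadjusted). The longer list alone and run 1 alone each left 1 member. Without WT mice 1 and 3 and PiZ mouse 5, chosen after seeing the data, there were 100 and 4. Leaving out 1 mouse gave 5 to 46 miRNAs and 0 to 3 members; the 0 came without WT mouse 4. miR-216b-5p was the member left wherever 1 passed, and with genotype alone it and miR-217-5p were not past the filter. The difference between lists had 6 calls with no filter and 0 to 15 with 1 mouse left out, 15 without WT mouse 2. miR-216b-5p missed the threshold in limma-voom (adjusted p = 0.0567), and miR-217-5p too (0.189). The log2 fold change of miR-375-3p was above 0 with genotype alone (0.0572), in the shorter list (0.0649), in run 2 (0.00906), without WT mice 1 and 3 (0.181), and without these and PiZ mouse 5 (0.252). With 1 mouse left out it ran from -0.561 to 0.0677, above 0 without PiZ mouse 5 (0.000797) and WT mouse 1 (0.0677). The causes were not tested. CPM from library totals moved no mean beyond its SD between mice. For miR-216b-5p in PiZ liver the mean went from 17.9 to 18.8 CPM, with an SD of 15.9. A limit that wide could hardly be passed, so it is a weak check. Of miR-216b-5p, miR-216a-5p and miR-217-5p, no alternative that tested them turned the direction. With 646, 168 and 183 PiZ reads against 1, 5 and 1 WT reads, it could hardly have turned, so this is no support. Depth limits the WT values, since a member of the chromosome 11 hairpins rests on 0 to 3 reads in a WT mouse. No paired analysis was possible because the replicate numbers name different animals.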
